A study of Mus musculus with 6 samples.

Results

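The genes described here are 7 genes of MHC class II antigen presentation, chosen by symbol: Cd74, H2-Aa, H2-Ab1, H2-Eb1, H2-DMa, H2-DMb1 and Ciita. All 7 had a row in the deposited expression table, out of 19086 genes listed. They were read in RNA sequencing libraries of mouse haematopoietic stem cells (HSCs), the cells that renew the blood, sorted as CD150+ CD48– cells of the LSK (lineage-negative, Sca-1+, Kit+) marrow fraction. The labels give the strain as C57BL/6. Both groups were chimaeras: lethally irradiated CD45.1 recipients received marrow from CD45.2 donors, and HSCs were sorted 2 months later. The donors were Zfp521fl/fl mice, called controls here, or Zfp521-CKO mice, which the labels describe as lacking the zinc finger gene Zfp521. Each group had 3 libraries, and the libraries labelled Zfp521-CKO are called CKO-labelled here. The H2 genes lie on chromosome 17 and Ciita on chromosome 16 (GENCODE M21, GRCm38). The labels name neither the Cre driver nor the excised part of Zfp521, and do not say whether a library is 1 recipient, so p-values measure a spread between libraries that may be technical.

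MHC class II molecules are pairs of an alpha and a beta chain that carry peptides from endosomes to the cell surface, where CD4 T cells read them. The invariant chain, the product of Cd74, fills the groove of a new class II molecule and routes it to endosomes, and the H2-M molecule (H2-DMa with H2-DMb1 or H2-DMb2) then exchanges the remnant of that chain for peptide. Transcription of the class II chain genes depends largely on the coactivator CIITA, which is recruited by RFX, NF-Y and CREB factors bound to the X and Y boxes of class II promoters. The genes are best known from B cells, dendritic cells and macrophages. Low expression in stem and progenitor cells has also been described.

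The promoters are shown here because the X and Y boxes are what ties class II genes to CIITA. RefSeq's table (build GRCm38.p6) held a promoter for 4 of the 7 genes, H2-Aa, H2-Eb1, H2-DMa and H2-DMb1, each from 250 bases before to 50 bases after a start. Cd74, H2-Ab1 and Ciita were not in it. The Y box letters TGATTGG, searched on both strands, lay in the promoters of 7 of the 8 class II genes in the table, H2-DMa being the exception, and in 7.82% of all 32851 promoters. A form of the X box, AACNNATG on the same strand and at most 60 bases before the Y box, lay in 5 of the 8 genes and in 0.0761% of all promoters. The letters are short forms of textbook boxes, a match is no proof of binding, and a missing match says only that these letters are not in the window. Each stretch below reads 5′ to 3′ on the strand of its gene and ends before the start site, with the letters of the matched X box and Y box in capitals.
H2-Aa, chr17:34287857-34287928, minus strand: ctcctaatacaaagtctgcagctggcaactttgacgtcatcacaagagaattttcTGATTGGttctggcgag
H2-Eb1, chr17:34305751-34305822, plus strand: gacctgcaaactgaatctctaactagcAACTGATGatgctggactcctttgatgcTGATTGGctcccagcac
H2-DMb1, chr17:34153073-34153144, plus strand: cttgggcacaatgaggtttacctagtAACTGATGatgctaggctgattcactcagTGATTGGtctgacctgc
H2-DMb2, chr17:34145102-34145173, plus strand: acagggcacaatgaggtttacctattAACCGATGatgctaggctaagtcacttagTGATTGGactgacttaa
H2-Oa, chr17:34092279-34092350, plus strand: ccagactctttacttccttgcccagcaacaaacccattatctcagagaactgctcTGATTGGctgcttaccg
H2-Ob, chr17:34238791-34238862, plus strand: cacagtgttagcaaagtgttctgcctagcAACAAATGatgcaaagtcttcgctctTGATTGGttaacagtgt

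The Y box ended 43 bases before the start of H2-Aa, 54 before H2-Eb1 and 56 before H2-DMb1. In H2-Eb1 and H2-DMb1 the matched X box was the same 8 letters, with 20 and 21 bases between it and the Y box. H2-DMb1 and its neighbour H2-DMb2, a near copy, had the same spacing and close to the same letters throughout. Reads of that pair may have been split between the copies by the counting step.

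The libraries differed in depth and content, which bears on every value below. Totals of whole reads, worked back from the deposited log2 values, were 7396932 to 10689480 per control library and 56237262, 30698602 and 3137596 in replicates 1, 2 and 3 labelled Zfp521-CKO. A value of 3 reads therefore stands at a log2 level of 2.07 to 2.80 among the controls and at 0.57, 0.95 and 3.96 in those 3 libraries. Zfp521 itself had 0, 3 and 0 reads among the controls and 1519, 126 and 0 reads in replicates 1 to 3 labelled Zfp521-CKO. The targeted gene thus goes against the labels, and a direction given here is one between labels. Of 16 HSC markers, 8 to 9 had reads in a control library and 16, 15 and 9 in the CKO-labelled libraries. Slamf1, which encodes the sorting antigen CD150, had reads in replicate 1 labelled Zfp521-CKO and in no other library. Only 3140 of the 19086 genes had reads in all 6 libraries. The RNA is bulk, so fewer cells of a type and less RNA per cell cannot be told apart.

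None of the 7 genes passed the test between the groups after adjustment over all genes. Cd74 was high in all 6 libraries. The chains H2-Aa and H2-Ab1 and the exchange factor subunit H2-DMa were each abundant in some libraries and near 0 in others of the same group. H2-DMb1 was close to 0 in every control and abundant in replicates 1 and 2 labelled Zfp521-CKO. Ciita had reads in a single library. Of the 7, limma called 0 at an adjusted p under 0.05, as it did over all 16436 genes tested (0% called), and 1, H2-DMb1, had an unadjusted p under 0.05, against 5.58% of all genes tested.

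**Figure D1:**
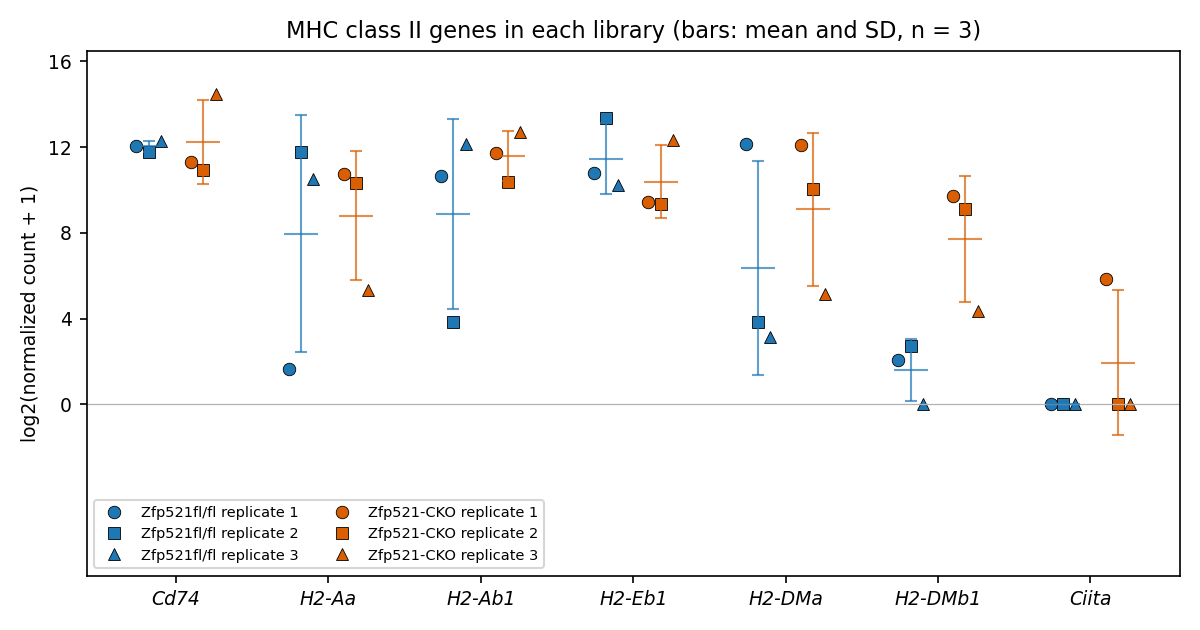
Deposited log2(normalized count + 1) of each of the 7 genes, with a point for each library (blue, Zfp521fl/fl; orange, labelled Zfp521-CKO; the symbol gives the replicate) and bars for the mean and SD of 3 libraries. Cd74 lies between 10.92 and 14.50 in all 6 libraries, while H2-Aa, H2-Ab1 and H2-DMa span 1.64 to 12.17 among the controls.

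Cd74, the invariant chain gene (ENSMUSG00000024610), had log2 values of 12.06, 11.76 and 12.29 in control replicates 1, 2 and 3. In replicates 1, 2 and 3 labelled Zfp521-CKO it had 11.29, 10.92 and 14.50. The first and second of these lay below every control and the third above every control, so the groups overlapped. The means were 12.03 ± 0.27 and 12.24 ± 1.97 (SD, n = 3 each), and the difference of 0.20 (95% interval -1.95 to 2.36, limma adjusted p = 0.94) was smaller than the spread. Its sign depended on replicate 3 labelled Zfp521-CKO, since without that library the difference was -0.93.

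As a rate, Cd74 took 376, 246 and 338 reads per 1000000 reads of the library (RPM) in the controls. Its rates were 276, 203 and 1523 RPM in the CKO-labelled libraries, the last with a 95% exact Poisson interval of 1481 to 1567. That interval, like all those given here, covers counting error only, since PCR copies are not independent molecules. The rate in the shallowest library was thus far above that in any other, and the remaining 5 lay close together. Among the controls alone, Cd74 was also one of the steadier genes of its level. Its control SD of 0.27 compares with a median of 0.78 over 416 genes within 1 log2 unit of its control mean. Of those, 8.89% had an SD as low. Its SD in the CKO-labelled libraries was 1.97, and no such comparison was made there.

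H2-Aa (ENSMUSG00000036594) and H2-Ab1 (ENSMUSG00000073421) encode the alpha and beta chains of H2-A, the class II molecule that C57BL/6 mice display. H2-Aa had log2 values of 1.64, 11.77 and 10.50 among the controls and 10.73, 10.34 and 5.32 in the CKO-labelled libraries. The low values stand for 2 reads in control replicate 1 and 8 reads in replicate 3 labelled Zfp521-CKO, against 728 to 10527 reads in the other libraries. H2-Aa was therefore nearly missing from 1 library of each group, and the groups overlapped.

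H2-Ab1 had log2 values of 10.66, 3.84 and 12.17 among the controls and 11.73, 10.36 and 12.70 in the CKO-labelled libraries. Here the low library was control replicate 2, with 7 reads, and no library labelled Zfp521-CKO was low. The difference was 0.82 for H2-Aa (95% interval -5.12 to 6.77, limma adjusted p = 0.92) and 2.71 for H2-Ab1 (-1.56 to 6.98, limma adjusted p = 0.67). Both rested on single libraries. Without control replicate 1 the H2-Aa difference was -2.34, and without control replicate 2 the H2-Ab1 difference was 0.19.

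Although the chains pair one to one in the H2-A molecule, their reads were far from a fixed proportion. The alpha chain gene took 0.131% of the reads of the pair in control replicate 1 (95% Wilson interval 0.0361 to 0.478%) and 99.6% in control replicate 2 (99.2 to 99.8%). Its part was 23.9% in control replicate 3. In replicates 1, 2 and 3 labelled Zfp521-CKO it was 33.2%, 49.6% and 0.583%. The H2-A genes thus stood on opposite sides in control replicates 1 and 2, by more than counting error. Per kilobase of exon, H2-Aa stood at 0.212, 0.336 and 0.665 of the level of H2-Ab1 in control replicate 3 and replicates 1 and 2 labelled Zfp521-CKO, where neither gene was near 0.

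**Figure D2:**
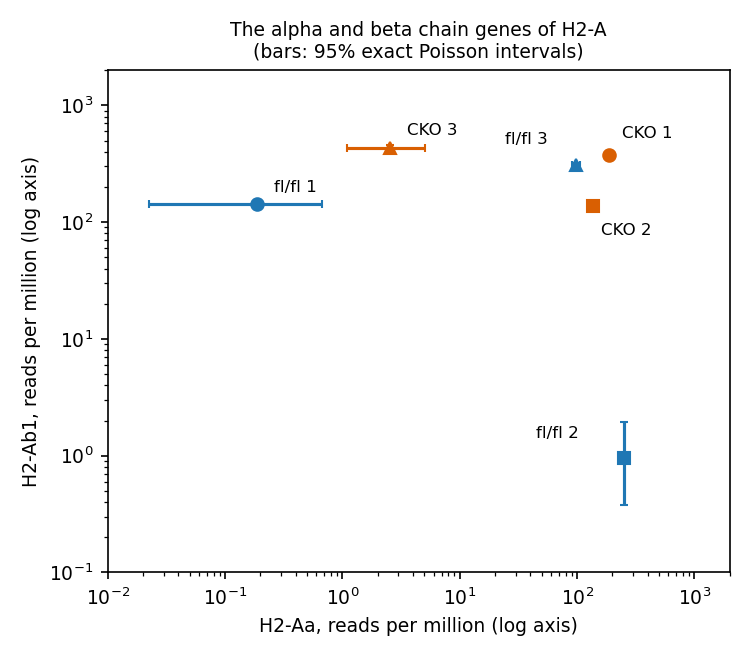
Reads per 1000000 (RPM) of H2-Aa (horizontal) and H2-Ab1 (vertical) in each library, on log axes with 95% exact Poisson intervals. Control replicate 1 and replicate 3 labelled Zfp521-CKO lie far to the left at 0.19 and 2.55 RPM of H2-Aa, and control replicate 2 lies far down at 0.95 RPM of H2-Ab1.

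H2-Eb1 (ENSMUSG00000060586) encodes the beta chain of H2-E. C57BL/6 mice carry a defective gene for its alpha chain partner, so the transcript is made without H2-E reaching the surface. Its log2 values were 10.82, 13.35 and 10.22 among the controls and 9.45, 9.34 and 12.35 in the CKO-labelled libraries. It was the sole member besides Cd74 with over 500 reads in every library. Control replicate 2 was the highest, at 744 RPM, where H2-Ab1 had 0.946. H2-Eb1 was also the only one of the 7 with a negative difference, -1.08 (95% interval -3.84 to 1.68, limma adjusted p = 0.70), and it stayed negative in all 16 alternative fits, from -2.06 to -0.14, none with an adjusted p under 0.05.

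H2-DMa (ENSMUSG00000037649) encodes the alpha chain of H2-M. It had log2 values of 12.13, 3.84 and 3.16 among the controls and 12.08, 10.06 and 5.13 in the CKO-labelled libraries. High libraries, with 3433 to 26960 reads, and low ones, with 4 to 7 reads, thus occurred in both groups. The difference was 2.72 (95% interval -3.38 to 8.81, limma adjusted p = 0.68). It ranged from 1.11 without control replicate 3 to 5.59 without control replicate 1.

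H2-DMb1 (ENSMUSG00000079547), the beta chain of H2-M, was the one gene of the 7 whose groups did not overlap. Its log2 values were 2.07, 2.74 and 0 among the controls and 9.70, 9.13 and 4.35 in the CKO-labelled libraries. In reads these were 3, 3 and 0 against 5177, 1799 and 4. The separation of the groups rests on those 4 reads in replicate 3 labelled Zfp521-CKO, whose rate of 1.27 RPM has a 95% exact Poisson interval of 0.347 to 3.26, overlapping those of control replicates 1 and 2 (0.0579 to 0.820 and 0.0836 to 1.19). The rates of 92.1 and 58.6 RPM in replicates 1 and 2 stood far above. Thinned to the 3137596 reads of the shallowest library, the counts were 0, 3 and 0 among the controls and 295, 194 and 4 in the CKO-labelled libraries.

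The means of H2-DMb1 were 1.60 ± 1.43 among the controls and 7.73 ± 2.94 in the CKO-labelled libraries (SD, n = 3 each). The difference of 6.13 (95% interval 0.43 to 11.83) did not pass over all genes (limma adjusted p = 0.61). It passed without replicate 3 labelled Zfp521-CKO (difference 7.82, limma adjusted p = 0.025) and with weights per library, which gave that library a weight of 0.239 (difference 7.53, limma adjusted p = 0.047), settings that called 2509 and 1660 genes in all. Over the 17 fits, main included, its adjusted p ran from 0.025 to 0.80. Groups that do not overlap were found for 7.17% of all genes tested in the higher direction and 2.05% in the lower one, against 1 and 0 of the 7 genes. This pattern, defined after the values were seen, was common: of 6034 genes with at least 500 reads in each of replicates 1 and 2 labelled Zfp521-CKO, 977 (16.2%) had at most 8 reads in each other library.

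Ciita (ENSMUSG00000022504), the gene of the coactivator, had reads in replicate 1 labelled Zfp521-CKO alone, 348 reads at a log2 value of 5.83. The other 5 libraries had 0 reads. With 0 reads seen, rates of up to 0.281, 0.406 and 0.402 RPM remain possible for control replicates 1, 2 and 3, taking 3 reads as the limit. The same limit is 0.0977 for replicate 2 and 0.956 for replicate 3 labelled Zfp521-CKO, against a rate of 6.19 (95% exact Poisson interval 5.55 to 6.87) in replicate 1. At the depth of the shallowest library the 348 reads thinned to 16. Cd74 had 1822 to 6227 reads in the 5 libraries without Ciita reads. Ciita passed the filter on low values through that single library, and 2658 of the 19086 genes listed (13.9%) likewise had reads there and nowhere else. Its difference was 1.94 (95% interval -1.92 to 5.80, limma adjusted p = 0.67).

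**Figure D3:**
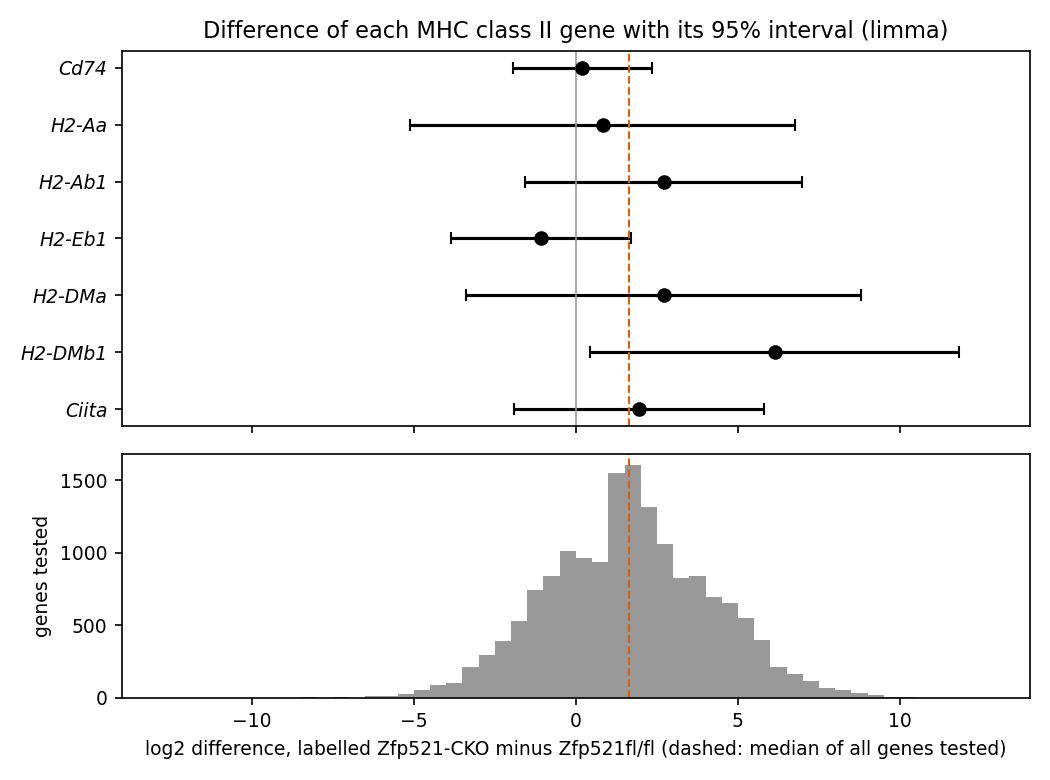
Upper panel: the log2 difference of each gene, labelled Zfp521-CKO minus Zfp521fl/fl, with its 95% interval from limma; the dashed line is the median of all genes tested. Lower panel: the number of genes tested per 0.5 log2 units of difference. The intervals of 6 of the 7 genes include 0, that of H2-DMb1 spans 0.43 to 11.83, and the median of all genes lies at 1.63.

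As a group, 6 of the 7 differences were positive and 1 was negative, with a median of 1.94, and this split was 5 to 2 under quantile normalization, weights per library and voom. It was also 5 to 2 without control replicate 1 or without replicate 3 labelled Zfp521-CKO, and 4 to 2 without replicate 1 labelled Zfp521-CKO, where Ciita has no reads left. The median was 0.68 without replicate 1 labelled Zfp521-CKO, with Ciita counted as unchanged, and 0.95 when totals were set to 1000000 in every library. Over all 16436 genes tested, 73.6% were positive and the median was 1.63. The 5 members with reads in every library, Cd74, H2-Aa, H2-Ab1, H2-Eb1 and H2-DMa, had a median of 0.82, beside 0.03 over the 3140 such genes. Values that fall from over 10 log2 units in 1 control to 4 or less in another were no peculiarity of the class II genes. By limits of 10 and 4 set after the values were seen, this held for 3 of the 5 members whose highest control was at least 10, and for 54.2% of the 3350 genes of the table that reach that level.

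The summed reads of the 7 genes took 0.107%, 0.124% and 0.0827% of all reads in control replicates 1, 2 and 3. They took 0.150%, 0.0714% and 0.231% in replicates 1, 2 and 3 labelled Zfp521-CKO. The highest and the lowest share both came from libraries labelled Zfp521-CKO, and the groups overlapped. The make-up of the sum changed more than its size. Cd74 gave 66.0% of it in replicate 3 labelled Zfp521-CKO, H2-Eb1 gave 59.9% in control replicate 2, and H2-DMa gave 36.9% in control replicate 1 but 0.0647% in control replicate 3. Per kilobase of exon, Cd74 was the highest of the 7 in 5 of the 6 libraries, and in control replicate 2 it was second to H2-Eb1, at 147 against 382 RPM per kilobase.

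**Figure D4:**
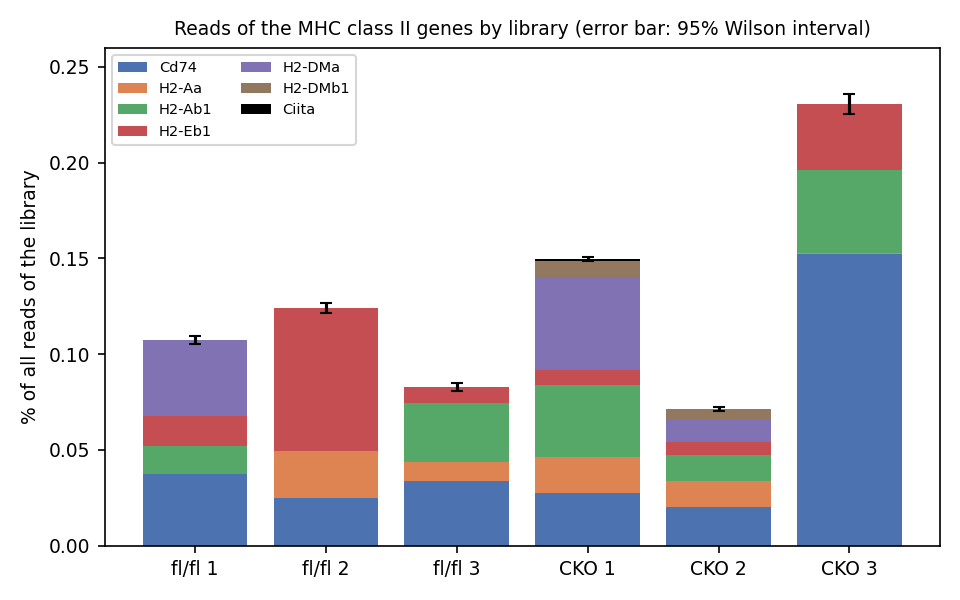
Share of all reads of each library taken by the 7 genes, stacked by gene, with the 95% Wilson interval of the sum (counting error only). The sums run from 0.0714% to 0.231%, and the largest part is Cd74 in 3 libraries, H2-DMa in 2 and H2-Eb1 in 1.

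The other class II chains had 0 to 4 reads outside replicates 1 and 2 labelled Zfp521-CKO, and their levels within those libraries differed. H2-Oa and H2-Ob encode H2-O, which restrains H2-M in B cells. H2-Oa had 1242 and 89 reads there and 0 in every other library. H2-Ob had 2315 and 2557 reads there, 4 in control replicate 1 and 0 elsewhere, and H2-DMb2 had 705 and 46, 3 in control replicate 3 and 0 elsewhere. In replicate 2 the rates were 2.90 RPM for H2-Oa and 83.3 for H2-Ob, beside 58.6 for H2-DMb1, and the 46 reads of H2-DMb2 were the fewest. All 3 had positive differences with a median of 4.16, beside 73.6% positive and a median of 1.63 over all genes tested. None was called by limma, and none had an unadjusted p under 0.05. No row matched H2-Ea, H2-Ea-ps or H2-Eb2.

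Among the factors that bind class II promoters, the RFX subunits also had most of their reads in replicates 1 and 2 labelled Zfp521-CKO, the deepest libraries. Of all genes with at least 500 reads in each of these, 16.2% had at most 8 reads in each other library. Rfx5 and Rfxank are among those, while Rfxap had too few reads in replicate 2 to be counted. Rfx5 had 679 and 2182 reads in replicates 1 and 2 labelled Zfp521-CKO and 0 in the other 4 libraries. Rfxap had 2106 and 225 reads there, and Rfxank 1406 and 1143, with 0 to 3 reads in every other library. The RFX genes were thus at or near 0 in libraries where Cd74 had 1822 to 4780 reads. Other binding factors varied. Creb1 had reads in all 6 libraries, and Nfyc had its highest rate, 89.6 RPM, in control replicate 3. Nfya was highest in replicate 1 labelled Zfp521-CKO, at 15.3 RPM. Of the 20 genes of the transcription list, 0 were called by limma and 2 had an unadjusted p under 0.05, both positive: Ezh2, a histone methyltransferase of Polycomb, with a difference of 7.52, and Nfyb, an NF-Y subunit, with 5.90 (limma adjusted p = 0.61 for each). Rfx5 came next, with 5.40 (limma adjusted p = 0.61). Of the list, 11 differences were positive and 9 negative, with a median of 1.11. Over all genes tested, 73.6% were positive, the median was 1.63, and 5.58% had an unadjusted p under 0.05 by limma. Spi1, the myeloid and B cell factor PU.1, was among the genes of highest level in the list, with a mean of 10.91 ± 0.63 for the controls and 9.46 ± 1.54 for the CKO-labelled libraries (SD, n = 3 each).

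Genes of endosomal processing were closer to even. Of 11 tested, 6 had positive and 5 negative differences, with a median of 0.04, and limma called 0, with 0 at an unadjusted p under 0.05. Ctss, the cathepsin that trims the invariant chain in many antigen-presenting cells, had log2 values of 11.52, 12.20 and 12.58 in the controls. In replicates 1, 2 and 3 labelled Zfp521-CKO it had 9.28, 9.80 and 13.90. The first and second lay below every control and the third above, as with Cd74; Ctss was named after its values were seen. Cd63 and Ctsb had the highest levels of the list, and Ctsh, Ctsz and Cd63 the smallest p, with differences of -3.71, -3.10 and -0.61 (limma adjusted p = 0.61, 0.67 and 0.68). Of the co-stimulatory genes, 5 of 8 had a row, 0 were called, 0 had an unadjusted p under 0.05, and the median difference was 0.96. The median over all genes tested was 1.63. Icam1, an adhesion molecule, had 2391 and 1263 reads in replicates 1 and 2 labelled Zfp521-CKO and 0 elsewhere (difference 5.74, limma adjusted p = 0.61). Cd86, Cd274 and Tnfsf9, ligands for T cell receptors of co-stimulation and inhibition, had differences of 0.96, 1.10 and 0.79 and reads in 2, 4 and 3 libraries.

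**Figure D5:**
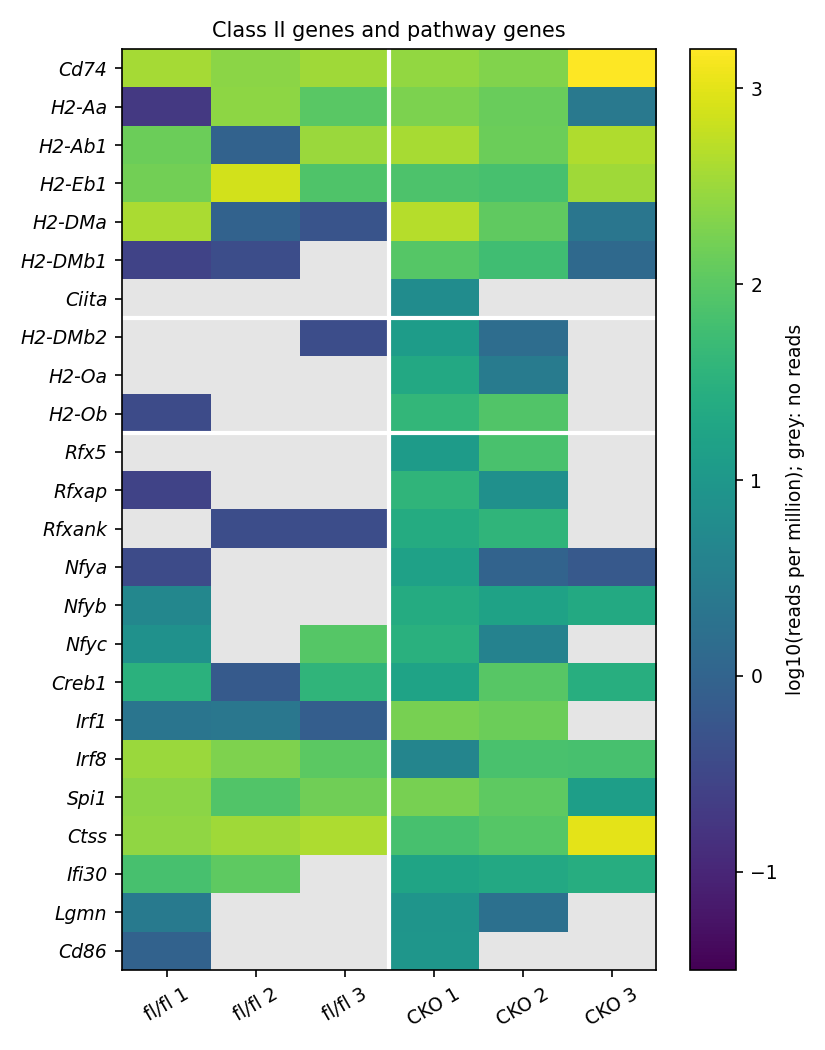
Reads per 1000000 (RPM) on a log10 scale for the 7 genes (top), the other class II chains (middle) and 14 genes of class II transcription, processing and co-stimulation (bottom), by library; grey marks 0 reads. Cd74 is bright in every column, while the RFX genes and the H2-O chains are above a few reads in replicates 1 and 2 labelled Zfp521-CKO only.

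Markers of cells known for class II expression were uneven across libraries as well. Of 15 B cell markers, 6 had a row, and Ms4a1 and Pax5 were among the 9 without one. Cd79b, a chain of the B cell receptor complex, had 7631 reads in the library with Ciita reads and 0 elsewhere, while its partner Cd79a had 4 reads there and 0 elsewhere; both were named after their values were seen. The summed B cell list took 0.00139 to 0.0556% of reads among the controls and 0.000127 to 0.0327% in the CKO-labelled libraries, most of it Ighm in control replicate 1. Their part in the class II values was not tested.

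The dendritic cell list, with 10 of 12 genes in the table and neither Itgax nor Batf3, took 0.0303 to 0.0836% among the controls and 0.112 to 0.134% in the CKO-labelled libraries. Cst3 and Flt3, the most abundant of it, are also expressed outside dendritic cells, Flt3 in early progenitors. Flt3 had log2 values of 3.54, 7.81 and 9.41 among the controls and 12.20, 12.44 and 10.54 in the CKO-labelled libraries (difference 4.80, limma adjusted p = 0.61). Its groups did not overlap, as for 7.17% of all genes tested in that direction. The other genes of the list, save Naaa, had 0 reads in every control. They are named after their values were seen, and the share of all genes with that pattern was not counted. Replicates 1 and 2 labelled Zfp521-CKO, with 56237262 and 30698602 reads, were deeper than any control. Fscn1, at 0.285 and 0.619 RPM there, lay near the limit of 3 reads in a control, 0.281 to 0.406 RPM. Zbtb46 had 104 and 42 reads, Xcr1 189 and 83, and Fscn1 16 and 19 in replicates 1 and 2 labelled Zfp521-CKO, and 0 in replicate 3. Clec9a and Ccr7 had 71 and 436 reads in replicate 1 alone, a pattern shared by 13.9% of all genes listed. The lectin genes went otherwise, Clec10a with 195 and 608 reads in replicates 2 and 3 and Cd209a with 32 in replicate 3 alone. The plasmacytoid list, led by Tcf4 and Runx2, took 0.00868 to 0.0467% and 0.0238 to 0.0342%. What these lists contribute was not tested.

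The 16 monocyte and macrophage markers, led by Lyz2 and Ly6c2, took 0.376 to 0.817% of reads among the controls and 0.111%, 0.264% and 0.873% in replicates 1, 2 and 3 labelled Zfp521-CKO. Neutrophil markers, led by S100a8 and S100a9, took 12.6 to 15.2% among the controls and 0.0361%, 1.46% and 12.9%. Most of the monocyte sum was Lyz2 in every library, and single monocyte markers differed. The genes given next were named after their values were seen. In replicate 3 labelled Zfp521-CKO C1qa had its highest rate, 57.7 RPM, but C1qb and C1qc had 0 reads. In control replicates 1, 2 and 3 C1qb had 55.5, 0.406 and 114 RPM and C1qc 158, 0 and 76.2. Ccr2 had its lowest rate, 2.23 RPM, in replicate 3 labelled Zfp521-CKO, and 8.55 and 8.86 RPM in replicates 1 and 2. Not every deposited value of Ccr2 was a whole number of reads, so its rates are rounded. The summed monocyte share, mostly Lyz2, and the log2 values of Cd74 and Ctss were lowest in replicates 1 and 2 labelled Zfp521-CKO. All of these were highest in replicate 3, but the rates of Ccr2 and F13a1 were not. F13a1 had 197, 88.4 and 22.4 RPM in control replicates 1, 2 and 3. It had 0, 36.6 and 3.19 RPM in replicates 1, 2 and 3 labelled Zfp521-CKO. As a rate, Cd74 was lower in control replicate 2, at 246 RPM, than in replicate 1 labelled Zfp521-CKO, at 276. The part of these cells in the Cd74 level was not tested. T and NK cell markers, with 4 of 12 genes in the table and led by Nkg7 and Lck, took at most 0.0972% in any library. HSC markers, led by Ly6a and Meis1, took 0.00899%, 0.144% and 0.0150% in control replicates 1, 2 and 3. They took 0.199%, 0.185% and 0.0244% in replicates 1, 2 and 3 labelled Zfp521-CKO. Most of the share in control replicate 2 was Ly6a, at 1256 RPM.

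The genes whose values ran most like the mean of Cd74, H2-Aa, H2-Ab1 and H2-Eb1 over the 6 libraries were Bri3bp, Vps29, Uqcr10, Pa2g4, Dap3 and Usf2. Their Pearson r was 0.98, 0.97, 0.96, 0.96, 0.94 and 0.94, and their Spearman rho ranged from 0.77 to 0.94. The r is the top of 3065 genes compared over 6 libraries that share depth differences, whose quartiles were -0.31 and 0.31, so it describes these libraries only. None of the 6 genes is a class II gene. Between pairs of members other than Ciita, r ran from -0.61 (H2-Eb1 with H2-DMa) to 0.62 (H2-DMa with H2-DMb1).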

How the data were processed

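HSC RNA was purified with a column kit for small samples and made into Illumina libraries, per the labels' protocols. Bowtie, DESeq2 1.26.0 and mm9 appear in the submitters' processing notes without a role; the sources used here give neither the read counter nor its annotation. Although the authors called the table FPKM, each deposited value is a log2 of 1 plus a normalized read count, with no correction for gene length. Dividing out each library's scale gave whole reads, within 0.001, for 99.65% of the 61139 values above 0. The exceptions lie in 70 genes, none of them a member but Ccr2 among them.

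Limma 3.58.1 (R 4.3.3; trend, genotype only, two-sided, Benjamini-Hochberg over all genes tested, threshold 0.05) was run on the deposited log2 values, for 16436 genes with a mean normalized count of at least 1. A log2 difference understates change in low genes. Lengths are unions of exons in GENCODE M21 (GRCm38), which may differ from the gene models counted. Depth ran from 3137596 to 56237262 reads. The fit was tested on simulated data. Alternatives were other filters, pseudocounts, scalings, weights, voom, thinned reads, a replicate block and leaving out each library.

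Members and lists were chosen with earlier results of these data known. Named genes are all members, the other class II chains, the RFX subunits, the 3 genes of smallest p and 2 of highest mean per pathway list, and 2 per marker list; exceptions are stated, and some genes that the rule names are not reported here. Marker genes without a row are mostly given as counts.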

Additional observations from a re-analysis of the deposited data

How the results depend on the processing

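The count of genes called over the whole table, 0 in the main fit (917 at an unadjusted p under 0.05), was 22 with quantile normalization, 1660 with weights per library, 161 with voom, and 0 to 2509 with each library left out, the 2509 without replicate 3 labelled Zfp521-CKO. It was 0 in the other 7 alternatives that kept every library, thinned reads included. Cd74 turned to -0.78 with weights per library and to -0.27 with voom, and ran from -0.93 to 0.86 with each library left out. H2-Aa ran from -2.34 to 2.72 in the same way. Ciita stood at -0.0013 with quantile normalization and had no difference without replicate 1 labelled Zfp521-CKO. The causes were not tested. The other 4 members kept their sign in all 16 alternatives. The median of all genes moved by -1.65 with quantile normalization, -0.72 with a total of 1000000, 0.91 with a pseudocount of 0.1, and -0.97 and 1.01 without replicates 1 and 3 labelled Zfp521-CKO. The members' median ran from 0.68 to 2.56 with each library left out, the 0.68 with Ciita counted as unchanged. With the 10 most abundant genes left out of the total, the members' share was 0.154%, 0.172% and 0.147% in controls 1, 2 and 3 and 0.161%, 0.0872% and 0.381% in replicates 1, 2 and 3 labelled Zfp521-CKO. With a replicate block 0 genes were called, and the members' median of 1.94 is the same by construction in this balanced design. Same-numbered libraries did not deviate together (r = 0.031, -0.040 and 0.0055 for numbers 1, 2 and 3, across genes). The labels do not say whether the numbers pair libraries. An r across genes so unevenly detected cannot exclude that they do. Where a library has 2 to 8 reads of a gene, depth limits the value to its counting interval.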
